A study of Mus musculus with 72 samples.

Results

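The genes examined are 37 genes of the cell division cycle: G1 cyclins and kinases, inhibitors of cyclin-dependent kinases, DNA replication and nucleotide supply genes, G2/M regulators, and mitotic kinase, checkpoint, spindle and chromosome genes. They were chosen by name, and each was read from a probe set with a single gene symbol, the brightest on average where a gene had more than 1. A value was obtained for 35 of the 37 genes, among 19938 genes tested. Cdkn1a, the inhibitor induced by p53, lay on a probe set that carries 2 symbols, and Ccnb1, a mitotic cyclin, had no single-symbol probe set in the annotation used, so neither is reported. The measured genes comprised 7 of G1 and G1/S, 1 inhibitor (Cdkn1b), 10 of replication, 4 of G2/M and 13 of mitosis.

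Progress through the cell cycle is driven by cyclins that activate cyclin-dependent kinases in turn. D-type cyclins with Cdk4 and E-type cyclins with Cdk2 release E2F transcription factors, which switch on the replication genes, and cyclins A and B with Cdk1 then carry the cell into mitosis. Hepatocytes of the adult liver are almost all quiescent but re-enter the cycle after injury or resection, with cyclin D1 among the early steps, and liver resident macrophages also divide.

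Livers of wild-type male mice, housed singly and random-fed, were profiled on 72 Affymetrix arrays. HFD livers came from mice fed a high-fat diet for 21 days, with 7 arrays of 129P2/OlaHsd (129), 7 of C57BL/6J (B6J), 8 of C57BL/6NTac (B6N) and 8 of C3HeB/FeJ (C3H), all 17 weeks old. Controls were 8 arrays of 129, 8 of B6J, 8 of B6N and 18 of C3H, for which the labels give no treatment, while the protocol mentions a low-fat diet. Controls of 129 were 17 weeks old and those of the other strains 15 to 17 weeks, so in B6J, B6N and C3H diet and age cannot be fully told apart.

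Values are log2 signals after robust multi-array averaging (RMA). Array medians lay at 6.46 to 6.65 in 129, 4.51 to 4.67 in both B6 substrains and 3.1 to 3.28 in C3H, so signals were compared within a strain, and between B6N and B6J, but not otherwise across strains. As a check of the tissue label, signals of the 11 hepatocyte markers lay a median of 7.96 log2 units above the array median with 0 of 11 below it. Markers of pancreatic acinar cells differed strongly between arrays: the mean over 18 of them ran from 6.47 to 12.33 in 129 HFD livers and from 6.55 to 11.24 in 129 control livers. The 129 control array of replicate 6 stood apart from the others of its group, so 129 differences of Ccnd1, Ccne1, Ccne2, Mcm2, Ccnb2 and Aurkb are given with and without it. Signals of 18 to 20 of the 35 members lay below the array median in each of the 8 groups. Averaged over the groups, all 4 G2/M members and 10 of 13 mitotic members did. In 129 control livers, though, Ccnb2 (0.30) and Cdk1 (0.11) lay above it. The array median is over all probe sets, and the median gene tested lay 0.28 to 0.41 log2 above it. Among the genes tested, the members' median percentile in a group was 39.4 to 42.7. Probe sets respond differently to the same amount of RNA, so these signals do not order the genes by abundance. In whole liver, fewer cycling cells and less mRNA per cell cannot be told apart.

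Many of the members' promoters carry sequence motifs linked to their cell cycle phase, and 3 are shown because they belong to genes with some of the largest differences in a strain (Mcm3, Ccnb2) or carry every motif searched (Cdk1). The motifs, searched on both strands, were the E2F site in any of its 4 spellings (TTCCCGC for the first, TTCGCGC for the second, TTGCCGC for the third and TTGGCGC for the fourth), the cell cycle homology region or CHR (TTTGAA), and the CCAAT box (these letters). Matches of 1 motif may overlap those of another. RefSeq promoters of build GRCm38.p6, from 250 bases before to 50 after the gene start, were matched for 28 of the 37 genes. An E2F motif stood in 6 of 9 replication promoters (66.7%), against 10.9% of the 27025 genes with a promoter. A CHR stood in 9 of 13 G2/M and mitotic promoters (69.2%), against 20.2% of all genes, and a CCAAT box in 11 of those 13 (84.6%), against 41.1%; 7 of 9 replication promoters (77.8%) also held a CCAAT box. The 250 bases before each start follow, 5′ to 3′ on the gene's strand, with motif matches in capitals; all 3 genes are on the minus strand.
Mcm3, chr1:20820313-20820562: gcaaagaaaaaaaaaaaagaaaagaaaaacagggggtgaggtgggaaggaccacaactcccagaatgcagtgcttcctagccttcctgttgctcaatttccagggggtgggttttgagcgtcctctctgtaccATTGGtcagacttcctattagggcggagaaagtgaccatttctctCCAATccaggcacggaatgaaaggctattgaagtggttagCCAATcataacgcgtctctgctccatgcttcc
Cdk1, chr10:69352913-69353162: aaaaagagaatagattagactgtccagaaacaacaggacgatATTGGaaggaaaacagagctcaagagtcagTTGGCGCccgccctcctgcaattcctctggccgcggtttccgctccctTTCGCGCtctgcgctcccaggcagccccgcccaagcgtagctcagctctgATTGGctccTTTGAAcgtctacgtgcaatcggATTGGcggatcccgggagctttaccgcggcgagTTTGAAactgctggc
Ccnb2, chr9:70421555-70421804: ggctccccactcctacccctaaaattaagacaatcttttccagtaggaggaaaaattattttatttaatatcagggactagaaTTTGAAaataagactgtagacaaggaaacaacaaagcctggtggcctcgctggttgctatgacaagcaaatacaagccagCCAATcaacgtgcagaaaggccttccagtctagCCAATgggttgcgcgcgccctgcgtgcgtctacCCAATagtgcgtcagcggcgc
Mcm3, a subunit of the replicative helicase, has 3 CCAAT boxes and no E2F or CHR match in this stretch; its 3 E2F matches reach past the start. Cdk1 has 2 E2F, 2 CHR and 3 CCAAT matches, and Ccnb2 has 1 CHR and 3 CCAAT matches. A match is a run of letters, and binding was not measured.

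The cell cycle genes differed little between HFD and control livers. No member passed the test in any single strain, and Ccnd1 alone passed it in the mean HFD effect over the 4 strains, at 1.17-fold. Each test was limma's moderated test on 8 group means, with p adjusted by Benjamini-Hochberg over the 19938 genes, and the word called is used for an adjusted p under 0.05. In 129, 0 of 35 members were called in either direction, against 0.441% of all genes called higher and 0.135% called lower. In B6J, 0 of 35 were called, against 0.13% higher and 0.166% lower. In B6N, 0 of 35 were called, against 0.637% higher and 0.281% lower. In C3H, 0 of 35 were called, against 0.517% higher and 0.336% lower. In the mean effect, 1 member was called higher and 0 lower, against 2.02% and 1.14% of all genes. With so few genes called in any strain, a count of 0 among 35 members is near the background.

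The intervals bound the size of these differences in array signal. How closely signal follows mRNA amount was not tested, also for the members below the array median. The median HFD effect over the members was -0.067 log2 in 129 (all genes 0.003), 0.016 in B6J (all genes 0.005), 0.001 in B6N (all genes -0.003) and 0.044 in C3H (all genes 0.009). The 129 median was -0.066 without 129 control replicate 6, -0.038 without control replicate 5, -0.033 without HFD replicate 4 and -0.011 without HFD replicate 2, so it depended on single arrays. The 95% interval of the HFD effect stayed within 1.5-fold in either direction for 35 of 35 members in 129 and in B6J. It did so for 34 of 35 in B6N, where Mad2l1 reached 1.51-fold, and for 34 of 35 in C3H, where Ccnd1 reached 1.56-fold. All 35 intervals stayed within 2-fold in every strain. Over all genes 95.1% to 97.5% of intervals in a strain stayed within 1.5-fold and 99.2% to 99.5% within 2-fold, so the members' shares are close to those of other genes. HFD and control arrays separated without overlap for 0 of 35 members in each strain; over all genes this occurred for 0.0552% (C3H) to 0.356% (B6N), so a count of 0 is near the background. The members' median residual SD of 0.197 log2 was close to the 0.211 of all genes.

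**Figure D1:**
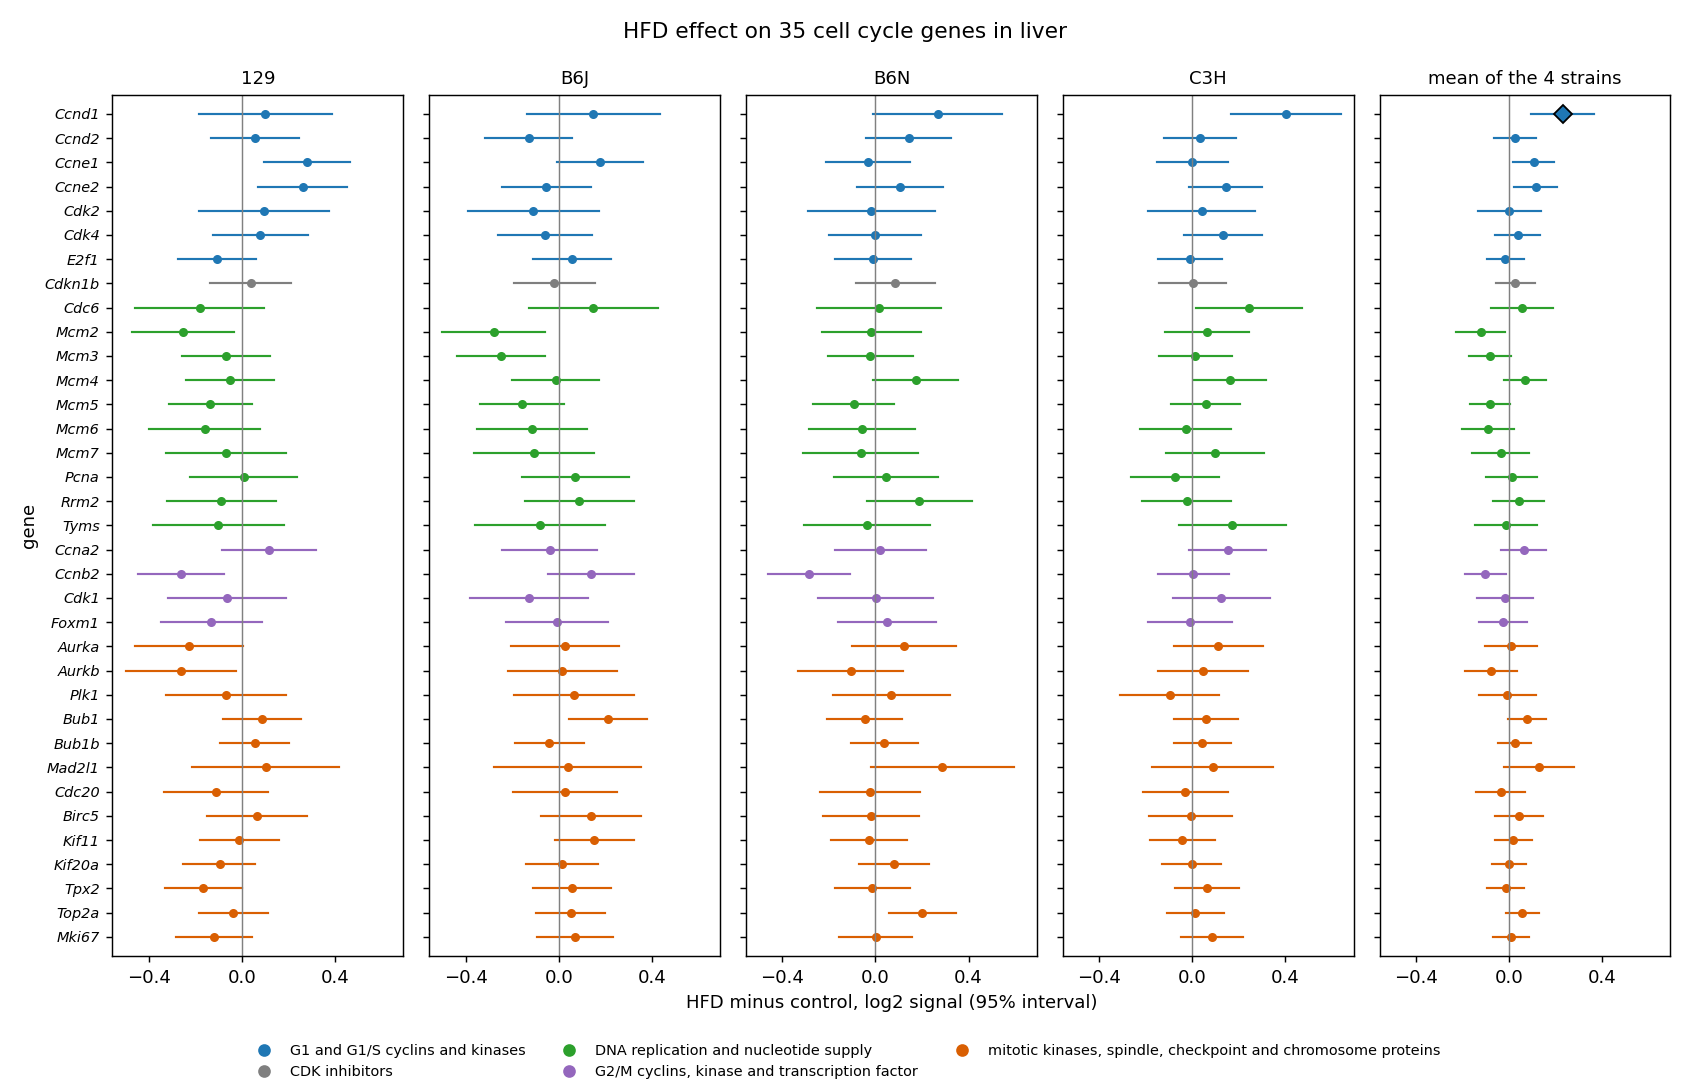
HFD minus control difference in log2 signal for the 35 measured genes (rows) in each strain and in the mean of the 4 strains (panels); points are estimates, lines 95% intervals and colours roles. The Ccnd1 diamond at 0.23 in the mean panel is the called effect, and in the strain panels all estimates lie between -0.29 and 0.40.

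At an unadjusted p under 0.05, 5 of 35 members differed in 129 (5.48% of all genes), 3 in B6J (5.78%), 2 in B6N (5.68%), 3 in C3H (8.24%) and 5 in the mean effect (11.1%). Genes named from this level are described with their values and were not called. Few members kept a direction: 2 of 35 had a positive difference in all 4 strains (Ccnd1 and Mad2l1) and 1 a negative difference in all 4 (Mcm6), together 8.57%, against 19.1% of all genes. The strains share no arrays.

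Among the G1 genes, Ccnd1, which encodes cyclin D1, the cyclin that couples growth signals to Cdk4, was higher in HFD livers in the mean of the strains. In C3H HFD livers Ccnd1 ran from 4.36 over a median of 5.41 to 5.67, against 4.37, 4.76 and 5.43 in C3H control livers. In B6N HFD livers it ran from 6.96 over 7.2 to 7.35, against 6.59, 6.92 and 7.21 in B6N control livers. The C3H groups overlapped, with 3 of 8 HFD arrays above every control and 1 below every control. In B6N all 8 HFD arrays lay above the control median and 4 of 8 above every control. In B6J HFD livers Ccnd1 ran from 7.22 over 7.35 to 7.69, against 6.95, 7.34 and 7.57 in B6J control livers. In 129 HFD livers it ran from 8.21 over 8.5 to 9.02, against 8.2, 8.26 and 9.11 in 129 control livers. The groups overlapped over most of their range in both strains, and the highest 129 array was a control.

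The HFD effect on Ccnd1 was 0.40 ± 0.12 log2 (SE) in C3H, 0.27 ± 0.14 in B6N, 0.15 ± 0.14 in B6J and 0.10 ± 0.14 in 129 (0.08 without 129 control replicate 6), with limma adjusted p = 0.093, 0.9, 1 and 1 in that order of strains. The mean effect was 0.23 ± 0.068 log2, or 1.17-fold (95% interval 1.07 to 1.29), with limma adjusted p = 0.041. The effect was not shown to differ between strains (F = 1.08, unadjusted p = 0.364, adjusted p = 1). The call was close to its threshold: leaving out 1 array at a time ended it for 26 of the 72 arrays, with the effect between 0.21 and 0.26 (0.22 and adjusted p = 0.057 without 129 control replicate 6), and centring the arrays on their medians ended it at adjusted p = 0.075. With the replicate numbers as a block it was 0.24 and also not called (adjusted p = 0.057).

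**Figure D2:**
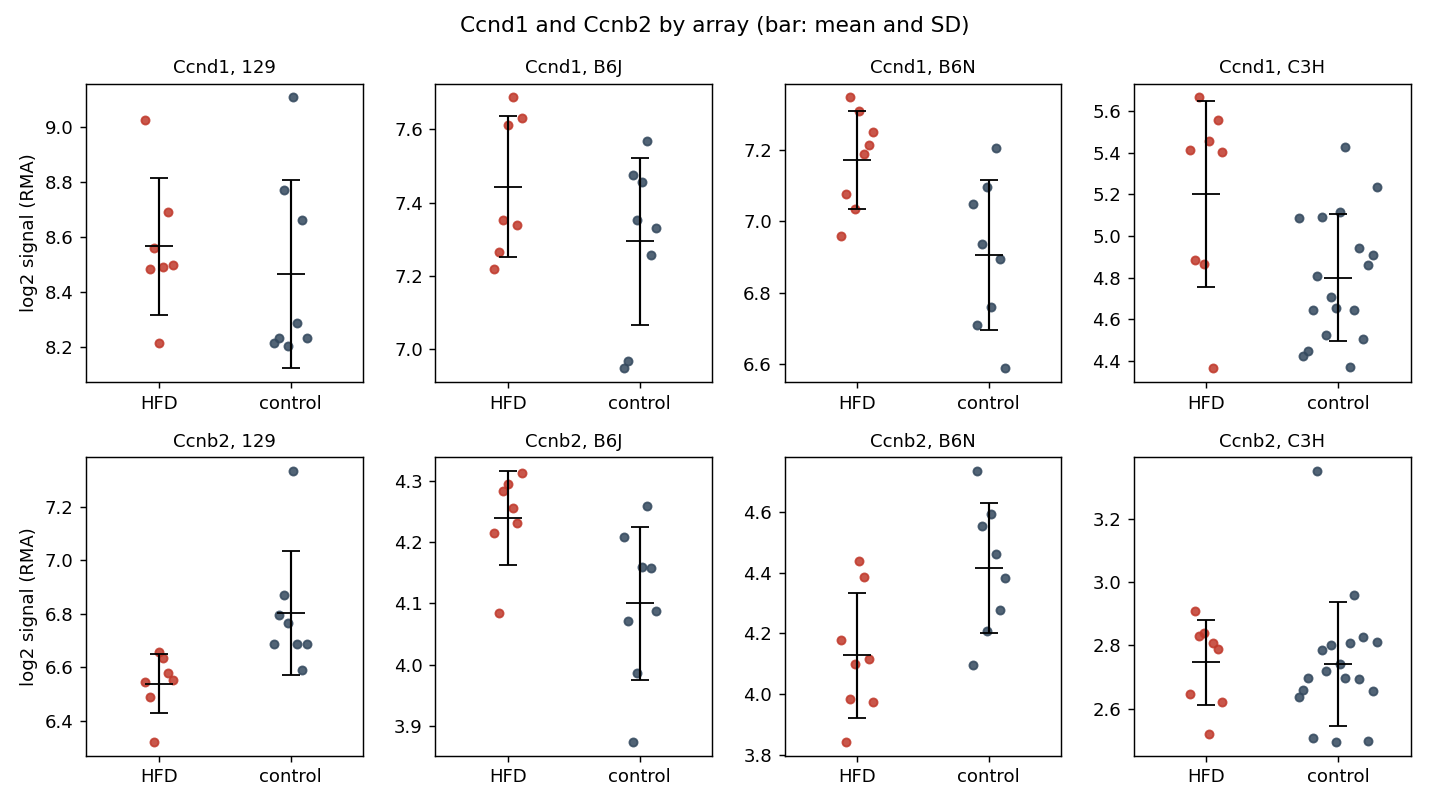
Log2 signal (vertical axis, RMA) of Ccnd1 (top row) and Ccnb2 (bottom row) on each array, by strain (columns), with HFD left of control; black bars give mean and SD. Ccnd1 means are higher in HFD than control livers in each strain, by 0.10 to 0.40, with overlapping points, while the sign of the Ccnb2 difference varies by strain.

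The E-type cyclins Ccne1 and Ccne2, which activate Cdk2 at the start of S phase, had their largest differences in 129. Ccne1 ran from 7.26 over 7.44 to 7.59 in 129 HFD livers, against 7, 7.06 and 7.56 in 129 control livers. All 7 HFD arrays lay above the control median, though 2 of 7 lay above every control. The difference was 0.28 ± 0.09 log2, or 1.21-fold, which did not pass (limma adjusted p = 0.24), and it was 0.30 without control replicate 6 (adjusted p = 0.2). With array weights estimated from the same values it was 0.33 and passed (adjusted p = 0.00026). That fit called 576 genes in 129, against 115 without weights. Ccne1 had a difference of 0.18 in B6J, against -0.03 in B6N and 0.001 in C3H. Ccne2 was at 0.26 ± 0.10 log2 in 129 (adjusted p = 0.38), and at 0.25 without control replicate 6 (adjusted p = 0.56). Cdk4, Cdk2, Ccnd2 and the transcription factor E2f1 were not called in any comparison. Cdkn1b, which encodes the kinase inhibitor p27, had differences of 0.04, -0.02, 0.08 and 0.003 log2 in 129, B6J, B6N and C3H, and its dimmer probe set gave -0.09, 0.14, 0 and 0.04.

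Of the 10 replication genes none was called, and their median differences were -0.095 log2 in 129 and -0.093 in B6J, against -0.02 in B6N and 0.06 in C3H. Differences were positive for 1 of 10 genes in 129 and 3 of 10 in B6J, against 4 of 10 in B6N and 7 of 10 in C3H. Mcm2, a subunit of the replicative helicase, ran from 4.62 over 5.1 to 5.39 in B6J HFD livers, against 5, 5.24 and 5.64 in B6J control livers. Of the B6J HFD arrays 3 of 7 lay below every control, and 1 of 7 lay above the control median. The Mcm2 difference was -0.28 ± 0.11 log2 in B6J (limma adjusted p = 0.64) and -0.25 ± 0.11 in 129 (adjusted p = 0.69), against -0.02 in B6N and 0.06 in C3H. Under 13 alternative settings the B6J difference ran from -0.5 to 0.11, so its sign did not hold in all of them. Array weights made the 129 difference a call, in the fit that called 576 genes. Without 129 control replicate 6 the 129 difference was -0.24 (adjusted p = 0.97).

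Mcm3, of the same helicase, ran from 4.15 over 4.41 to 4.6 in B6J HFD livers, against 4.45, 4.6 and 4.88 in B6J control livers, with 5 of 7 HFD arrays below every control. Its difference was -0.246 ± 0.095 log2 (limma adjusted p = 0.61), against -0.07 in 129, -0.02 in B6N and 0.01 in C3H. Cdc6, the loader of that helicase onto origins, ran from 2.98 over 3.15 to 3.6 in C3H HFD livers, against 2.58, 2.93 and 3.34 in C3H control livers. All 8 C3H HFD arrays lay above the control median, with a difference of 0.245 ± 0.11 log2 that did not pass (limma adjusted p = 0.56). Pcna, the sliding clamp of the replication fork, had differences of 0.007, 0.07, 0.05 and -0.07 log2 in 129, B6J, B6N and C3H, and its second probe set was within 0.02 of these in every strain.

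The 4 G2/M genes had median differences of -0.098 log2 in 129 and -0.023 in B6J, with 0.011 in B6N and 0.065 in C3H. Ccnb2, a B-type cyclin partner of Cdk1, ran from 3.84 over 4.11 to 4.44 in B6N HFD livers, against 4.1, 4.42 and 4.73 in B6N control livers. It ran from 6.32 over 6.55 to 6.66 in 129 HFD livers, against 6.59, 6.73 and 7.34 in 129 control livers. In B6N 3 of 8 HFD arrays lay below every control, and in 129 5 of 7 did. The difference was -0.285 ± 0.09 log2 in B6N (limma adjusted p = 0.15) and -0.26 ± 0.09 in 129 (adjusted p = 0.31), against 0.14 in B6J and 0.005 in C3H.
The test that the 4 strains share the same HFD effect gave Ccnb2 F = 5.35 (unadjusted p = 0.00222), with an adjusted p of 0.47. The highest 129 control, replicate 5 at 7.34, weighed on the 129 value, which was -0.19 without it and -0.28 without replicate 6. Cdk1, the kinase that drives entry into mitosis, had differences of -0.065, -0.127, 0.001 and 0.125 log2 in 129, B6J, B6N and C3H.

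None of the 13 mitotic genes was called, and their median differences were -0.07 log2 in 129 and 0.002 in B6N, with 0.052 in B6J and 0.044 in C3H. Mki67, the proliferation marker Ki-67, had differences of -0.12, 0.07, 0.002 and 0.09 log2 in 129, B6J, B6N and C3H, with the mean effect bounded between 0.955-fold and 1.06-fold. Mad2l1, a spindle checkpoint protein, ran from 5.12 over 5.39 to 6 in B6N HFD livers, against 4.89, 5.22 and 5.5 in B6N control livers. Of the 8 B6N HFD arrays 3 lay above every control, and the difference of 0.29 ± 0.15 log2 did not pass (limma adjusted p = 0.93).
Bub1, a checkpoint kinase, was at 0.21 ± 0.08 log2 in B6J (limma adjusted p = 0.64), and Top2a, the topoisomerase that untangles sister chromatids, at 0.20 ± 0.07 in B6N (adjusted p = 0.33). The second Top2a probe set gave -0.04 in B6N, so its 2 probe sets did not show the same sign. Aurkb, a kinase of the chromosomal passenger complex, was at -0.26 ± 0.12 in 129 (adjusted p = 0.75), or -0.18 without control replicate 6.

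No member's HFD effect was called as different between strains, with 0 of 35 called in the F test against 0.125% of all genes. At an unadjusted p under 0.05 there were 3 of 35 (Ccne1, Mcm2 and Ccnb2), against 3.93% of all genes. The related substrains B6N and B6J, whose array medians fall in 1 range, were also set against each other on each diet. Among HFD livers 0 of 35 members were called, against 0.1% of all genes higher in B6N and 0.0903% lower, and 3 had an unadjusted p under 0.05 (6.14% of all genes). Among control livers 0 of 35 were called, against 0.015% higher and 0.0201% lower, and 3 had an unadjusted p under 0.05 (6.85%).
Ccnd1 was at -0.27 ± 0.14 log2 in B6N minus B6J HFD livers (limma adjusted p = 0.82) and at -0.39 ± 0.14 in the control livers (adjusted p = 0.66). Ccnb2 was at -0.11 ± 0.09 in HFD livers (adjusted p = 0.92) and at 0.31 ± 0.09 in control livers (adjusted p = 0.42). The B6N minus B6J medians over 18 acinar markers were -1.035 log2 in HFD livers and -2.014 in control livers. On either diet 0 of 18 were called, while 2 in HFD and 17 in control livers had an unadjusted p under 0.05. The mean over these markers ran from 4.88 to 11.16 between B6J control arrays. With the acinar mean as a covariate 0 of 35 members were called on either diet, and Ccnd1 was at -0.28 log2 in HFD livers (adjusted p = 0.69) and -0.41 in control livers (adjusted p = 0.46).

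The members varied together little from liver to liver. After group means were removed, the mean Pearson correlation between pairs of members over arrays was 0.071 in 129, 0.005 in B6 and 0.009 in C3H, against 0.029, 0.003 and 0.002 over all genes. For the 17 G2/M and mitotic members it was 0.134 in 129, 0.026 in B6 and 0.111 in C3H. By comparison it was 0.499, 0.32 and 0.211 for 18 macrophage and Kupffer cell markers, and 0.934, 0.93 and 0.836 for the acinar markers. These correlations are over 15, 31 and 26 arrays and share each array's normalisation and RNA.
On some arrays many mitotic genes had high signals at once. The 129 control of replicate 5 was the highest control for 10 of the 17 genes and replicate 6 for the other 7, and the C3H HFD array of replicate 3 was the highest of its group for 8 of 17. Of these, 129 control replicate 6 had the highest array median of its group (6.653, the next at 6.498), as did C3H HFD replicate 3 (3.282, the next at 3.259). With arrays centred on their medians the counts were 12 and 3 of 17 in the 129 controls of replicates 5 and 6, and 6 of 17 in the C3H HFD array. B6N control replicate 3 was the highest of its group for 7 of 17 genes, both as deposited and centred. B6N control replicate 6, B6J HFD replicate 6 and 129 HFD replicate 1 were so for 6 of 17 each as deposited, and for 4, 5 and 5 centred. B6J HFD replicate 4 was so for 1 of 17 as deposited and for 6 centred, so the leading B6J HFD array changed with the scaling.

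**Figure D3:**
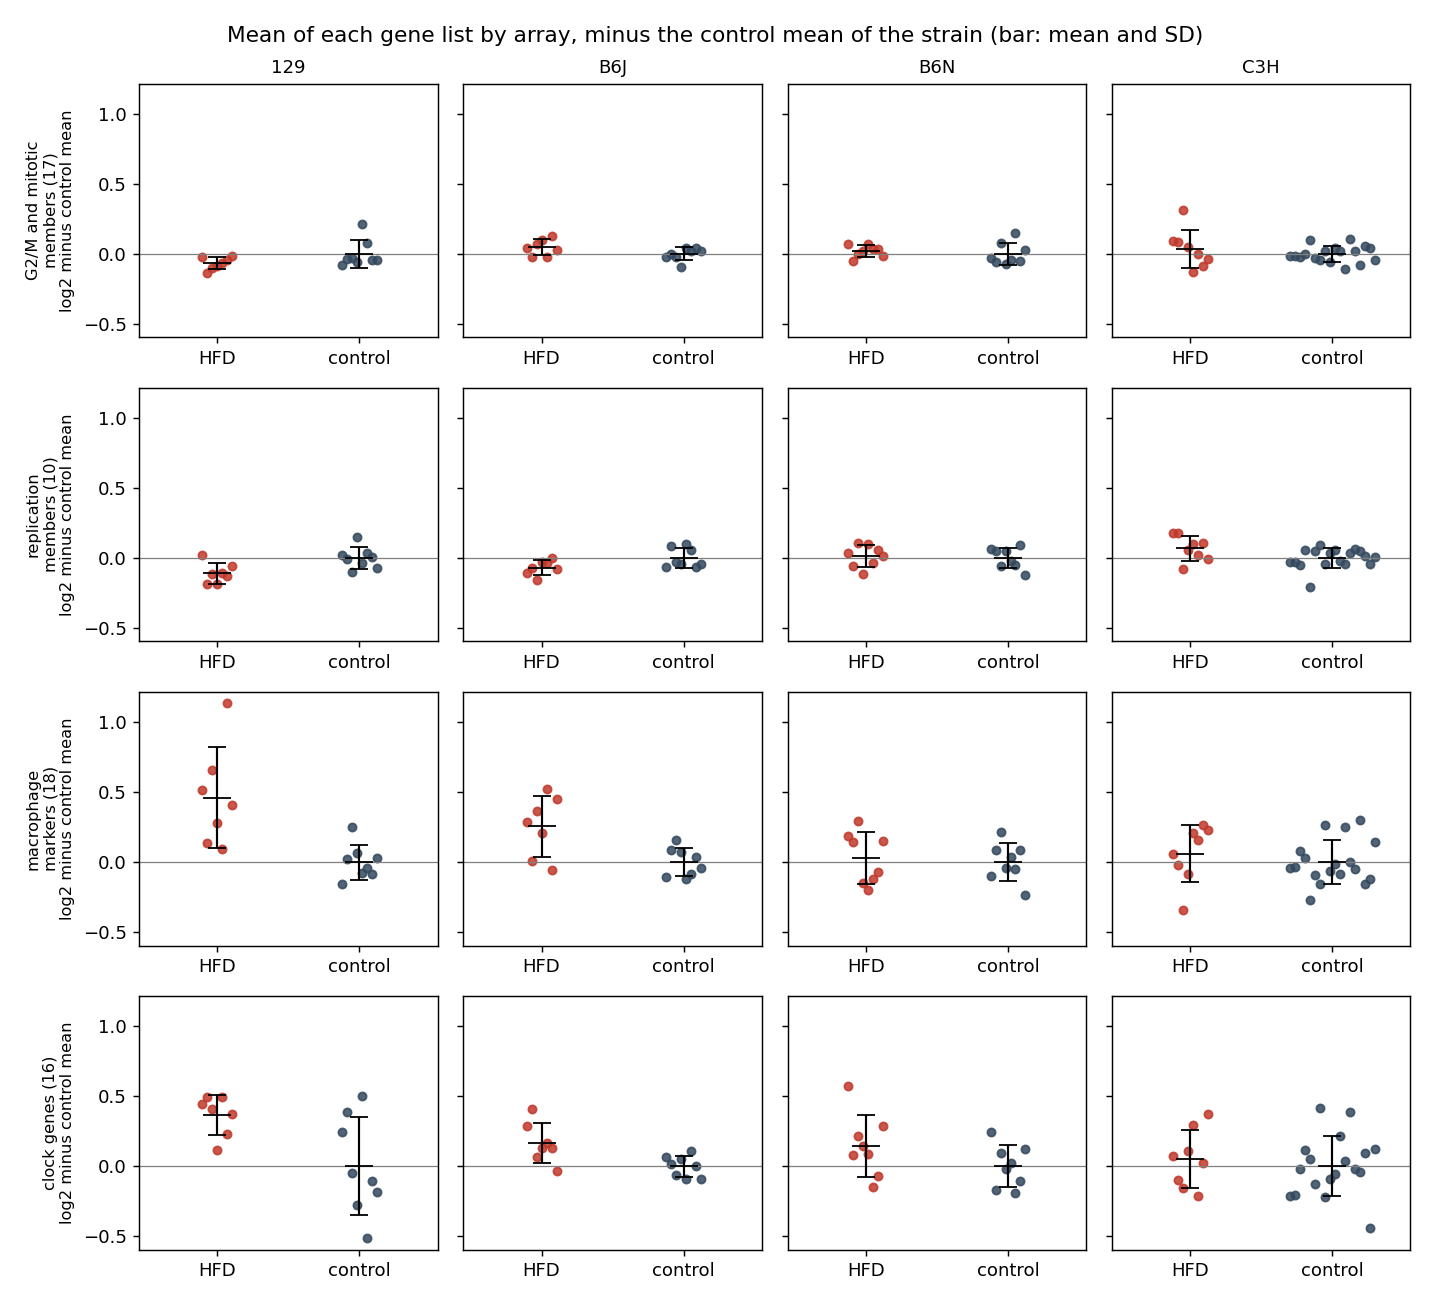
Mean log2 signal of 4 gene lists (rows) on each array minus the control mean of its strain (vertical axis), by strain (columns), with HFD left of control; black bars give mean and SD. Before that subtraction, the 17 G2/M and mitotic members average 5.92 in 129 HFD livers and 5.99 in 129 control livers. The 10 replication members average 6.94 and 7.05 there, and the 18 macrophage markers 8.57 and 8.11. For the G2/M and mitotic members the highest C3H HFD array is at 3.11, against a C3H control mean of 2.79.

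Markers of other cells were called in the same comparisons. In 129, 6 of 18 macrophage markers rose with HFD and 0 fell, at a median of 0.443 log2, with Adgre1, the F4/80 antigen, at 1.97-fold (limma adjusted p = 0.0096) and Cd5l at 1.73-fold (adjusted p = 0.0039). In the mean effect 6 of 18 rose as well, at a median of 0.195 log2. Of all genes 0.441% were called higher in 129 and 2.02% in the mean effect. In B6J, B6N and C3H 0 of 18 were called, at medians of 0.265, 0.031 and 0.072 log2. The mean over the macrophage markers ran from 8.2 to 9.24 in 129 HFD livers and from 7.95 to 8.36 in 129 control livers. Of 14 lymphocyte markers Ptprc, the pan-leukocyte antigen CD45, rose in 129 and in the mean effect. No marker of erythroid precursors (9), of neutrophils and their precursors (10), of stellate cells (11) or of bile ducts (6) was called in an HFD comparison, and of 10 endothelial markers Lyve1 rose in the mean effect at 1.17-fold. Of the 11 hepatocyte markers Cps1 fell in C3H and in the mean effect, and Tat fell in the mean effect. Of the 18 acinar markers none was called, at median differences of 0.576, 0.309, 1.132 and -0.23 log2 in 129, B6J, B6N and C3H. With the acinar mean as a covariate the Ccnd1 mean effect was 0.24 log2 (adjusted p = 0.038). The part of macrophages in the cell cycle signals was not tested.

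Other genes of the cycle, from lists of related genes, included 5 called in the mean effect. Of 35 other mitotic genes 1 rose and 1 fell in the mean effect, of 31 other replication and repair genes 0 rose and 2 fell, and of 36 other regulators 1 rose and 0 fell. Over the 102 genes of these lists 1.96% rose and 2.94% fell, beside 2.02% and 1.14% of all genes. The medians of these lists were 0.02, -0.025 and -0.003 log2.
Spc25, a subunit of the Ndc80 kinetochore complex, rose with HFD in the mean effect by 0.37 ± 0.05 log2, or 1.29-fold (95% interval 1.21 to 1.38, limma adjusted p = 3.4e-08). It ran from 5.85 over 6.13 to 6.3 in B6N HFD livers, against 5.25, 5.55 and 6.01 in B6N control livers, and 6 of 8 HFD arrays lay above every control. It ran from 5.47 over 5.75 to 5.95 in B6J HFD livers, against 4.86, 5.36 and 5.63 in B6J control livers, with 5 of 7 HFD arrays above every control. The HFD effect passed in B6N at 1.41-fold (adjusted p = 0.0012) and in B6J at 1.34-fold (adjusted p = 0.037), and was 1.24-fold in C3H (adjusted p = 0.055) and 1.18-fold in 129 (adjusted p = 0.64). The B6J call ended when any of 10 of its 15 arrays was left out, with adjusted p up to 0.17, and in 8 of 13 other settings. The mean effect kept its call in every such fit, and the B6N call in all but that of part a of the arrays (3 HFD and 4 control in B6N, 0.31 log2, adjusted p = 0.67). The other subunits of the complex, Ndc80, Nuf2 and Spc24, were in the same list and were not called in any comparison.

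Wee1, the kinase that holds back Cdk1 and whose gene is also a target of the circadian clock, rose in the mean effect by 0.64 ± 0.15 log2, or 1.56-fold (limma adjusted p = 0.0026). It ran from 7.87 over 8.72 to 9.92 in 129 HFD livers, against 6.82, 7.45 and 9.16 in 129 control livers. The groups overlapped in each strain, and no single strain passed. Clock genes were called in the same comparison. Of 16 clock genes, 7 rose and 1 fell in the mean effect (2.02% and 1.14% of all genes), with Dbp at 1.59-fold (adjusted p = 0.016), Per3 at 1.39-fold (adjusted p = 0.0021) and Arntl at 0.709-fold (adjusted p = 0.017). Among single strains 3 of 16 were called in 129 and 0 in B6J, B6N and C3H. The medians of the list were 0.329, 0.094, 0.145 and 0.07 log2 in 129, B6J, B6N and C3H. The part of the clock genes in the Wee1 difference was not tested.
Tk1, the S-phase thymidine kinase, fell in B6N by 0.55 ± 0.13 log2, or 0.684-fold (limma adjusted p = 0.01), with 7 of 8 HFD arrays below every control. Within either part of the B6 and C3H arrays, split by their main component, it was -0.58 (3 HFD and 4 control B6N arrays, adjusted p = 0.21) or -0.54 (5 and 4, adjusted p = 0.26). In B6N HFD livers it ran from 6.28 over 6.45 to 6.98, against 6.78, 7.13 and 7.29 in B6N control livers. It fell in the mean effect to 0.836-fold (adjusted p = 0.0064), with a difference of 0.11 log2 in 129. That 129 difference includes control replicate 6 at 7.8, the next control being at 8.3. The 129 HFD median of 8.48 lay below the control median of 8.56. Prim1, the DNA primase subunit, and Cks2, a cofactor of the mitotic kinase, fell in the mean effect to 0.848-fold (adjusted p = 0.03) and 0.856-fold (adjusted p = 0.01).

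**Figure D4:**
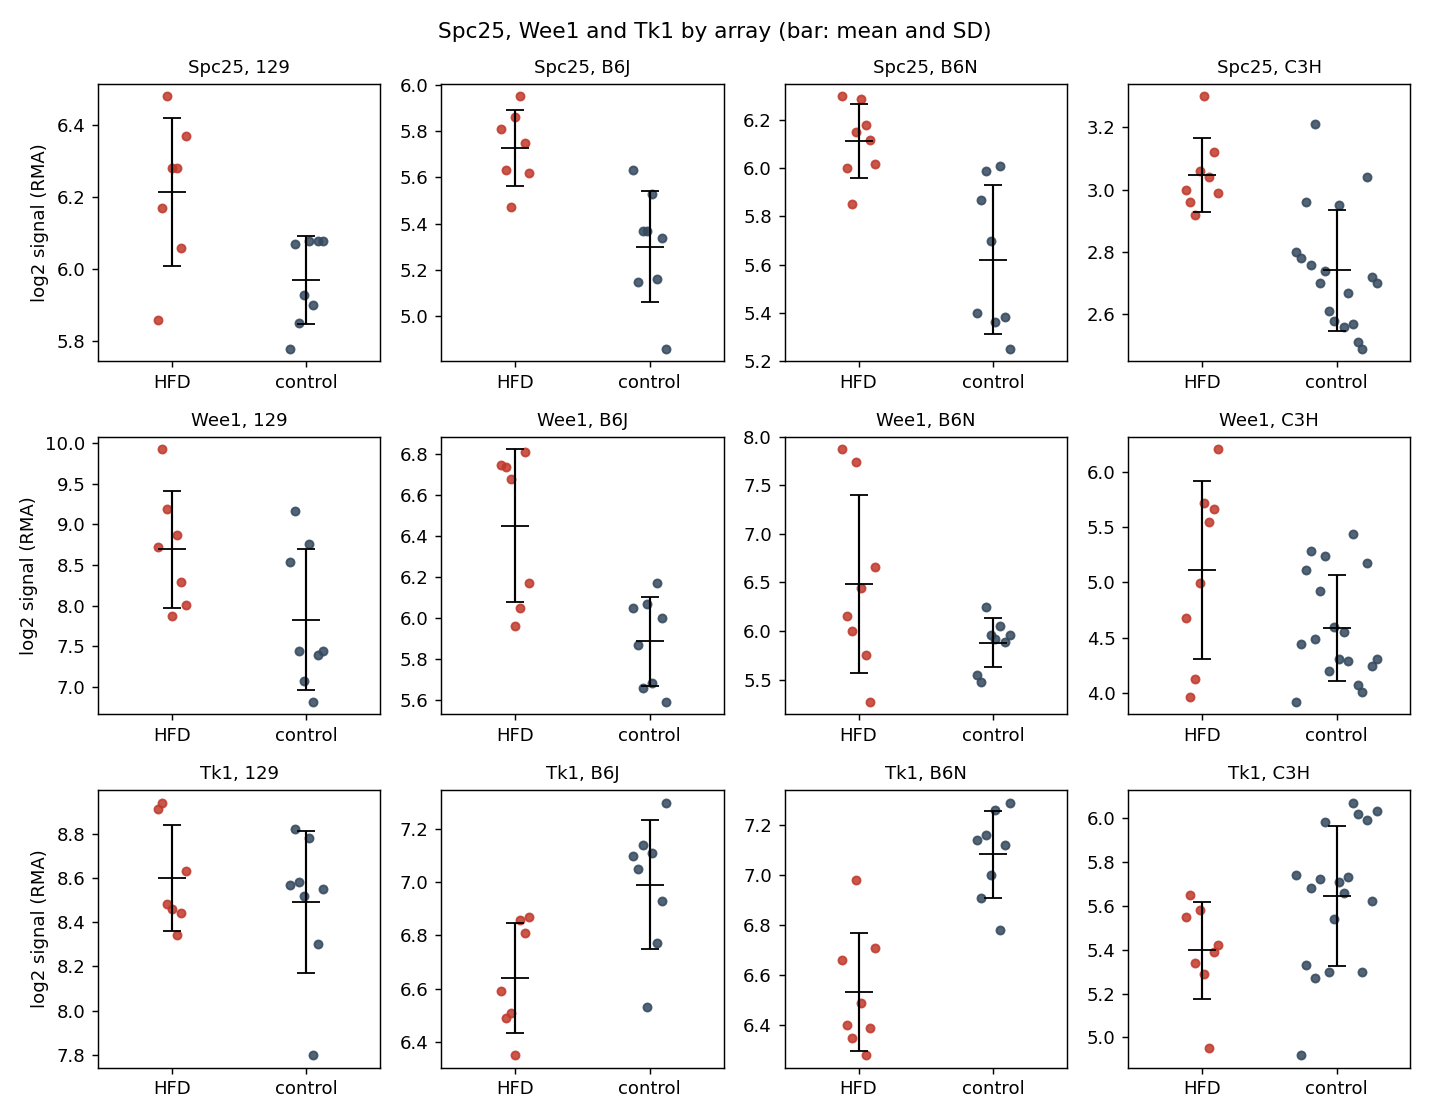
Log2 signal (vertical axis, RMA) of Spc25, Wee1 and Tk1 (rows) on each array, by strain (columns), with HFD left of control; black bars give mean and SD. Spc25 HFD means lie above the control means in every strain, from 6.21 against 5.97 in 129 to 6.11 against 5.62 in B6N. Tk1 HFD means lie below the control means in B6J, B6N and C3H. In 129 the Tk1 mean is 8.6 in HFD and 8.49 in control livers, with control replicate 6 at 7.8.

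Of 23 p53 target genes Perp, a component of desmosomes, rose in C3H at 1.33-fold (limma adjusted p = 0.002) and in the mean effect at 1.24-fold (adjusted p = 4e-06), and no other was called. Among 21 genes of hepatocyte growth signalling Egfr, the receptor of epidermal growth factor, fell in C3H to 0.501-fold (adjusted p = 0.0015) and in the mean effect to 0.72-fold (adjusted p = 0.0072). Tgfb1, which encodes a growth inhibitor of hepatocytes, rose in the mean effect to 1.13-fold (adjusted p = 0.029), a call that 5 of 12 alternative settings ended. The median HFD effect of that list in C3H was -0.003 log2. Of all genes 0.517% were called higher and 0.336% lower in C3H, and 2.02% higher and 1.14% lower in the mean effect.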

How the data were processed

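Liver RNA was measured on 72 Mouse Gene ST arrays (Affymetrix). Per the submitters' processing notes, the authors summarised the probes by RMA with the Expression Console of Affymetrix, version 1.1, and deposited log2 signals. Further settings are not given in the sources used here. Their table holds 35556 probe sets, of which 21789 carry 1 gene symbol, 1621 several and 12146 are not listed in the platform annotation. Symbols were updated through RefSeq, giving 19938 genes, each read from its brightest probe set. Array medians fell into 3 sets, which may have been normalised apart though no source used here says so, so levels were compared only within a set. The number of arrays, not read depth, limits the precision.

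limma 3.58.1 in R 4.3.3 was fitted to 8 group means (64 residual degrees of freedom), with HFD minus control in each strain, its mean over strains, an F test of strain differences, and B6N minus B6J on each diet. P-values were adjusted by Benjamini-Hochberg over all genes, and calls made under 0.05. The script was tested on simulated data. A gene of the 37 called in any comparison was described in full, otherwise the 2 with the largest differences in each strain; from other lists, called genes were named, up to 5 per comparison. The members and lists were chosen with earlier results of these data known. The labels number the arrays as replicates without saying that each is a separate mouse, so the spread behind a p-value may be partly technical. No 2 arrays held identical values. HFD and control arrays share replicate numbers, but nothing in the labels ties them. Deviations of same-numbered arrays correlated above 0.1 for all 8 numbers in B6N (0.101 to 0.462). They did so for 6 of 7 in 129, 5 of 7 in B6J and 1 of 8 in C3H. In B6N replicates 1 to 3 lay on 1 side of the main component among arrays, and 5 to 8 on the other, on both diets. These correlations therefore cannot tell pairs from such array structure, and the main test used no pairs. Alternatives changed the normalisation, scaling, weights, genes or probe sets tested, covariates, blocks and arrays.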

Additional observations from a re-analysis of the deposited data

Results flagged for a closer look

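Each group of 7 or 8 arrays was examined for 1 array far from the rest, over 10 genes and 4 list means, 98 groups in all; chance alone marks about 1 in 20 groups, and 5 were marked. Ccnb2 in 129 control livers had replicate 5 at 7.34, above the next array at 6.87. The mean over all members was also highest in that liver, at 6.909 against 6.786 for the next control. Ccnb2 in B6J HFD livers had replicate 2 at 4.08, below the next at 4.22. Mad2l1 in B6J control livers had replicate 6 at 4.43, below the next at 5.09. The mean over G2/M and mitotic members had B6J control replicate 4 at 3.957, below the next at 4.031.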

How the results depend on the processing

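Counts of called members stayed the same, or median effects moved by less than the spread between arrays, in 237 of 246 comparisons under 14 other settings, and in 538 of 566 comparisons with 1 array left out. These totals say little, since all counts but 1 were 0 in the main fit and few genes were called in any strain. The median rule was also wide: the 129 median ran from -0.081 to -0.011 with 1 array left out and still counted as the same. The only count above 0, that of the mean effect, was kept in 6 of 12 settings and in 46 of 72 fits with 1 array left out. The Ccnd1 call in the mean effect (1 member) became 0 members with quantile normalisation within each set (0.21 log2, limma adjusted p = 0.083), with arrays centred on their medians (0.22, p = 0.075), with p adjusted over every probe set (0.23, p = 0.067), and in the arrays of part a alone (0.20, p = 0.29) or part b alone (0.26, p = 0.23) of B6 and C3H, where the parts are the 2 sides of the main component among arrays. With a replicate block it also became 0 members (0.24, p = 0.057), and the Spc25 call in B6J ended (0.36, p = 0.16). In B6N the block left 0 members called and kept the Spc25 and Tk1 calls, though the labels do not tie same-numbered arrays. The Ccnd1 call ended without 1 array in 26 of 72 cases (129, 3 HFD and 5 control arrays, B6J, 3 HFD and 3 control, B6N, 3 HFD and 4 control, C3H, 5 HFD and 0 control). Its count thus ran from 0 to 1, with adjusted p from 0.0069 to 0.08. Array weights gave 1 member higher (Ccne1) and 1 lower (Mcm2) in 129, where they raised the genes called from 115 to 576. A block for array part gave 1 member higher in C3H (Ccnd1, 0.41, p = 0.046), and so did leaving out C3H control replicate 11 (p = 0.036) or C3H HFD replicate 6 (p = 0.0053), so that count ran from 0 to 1.

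Over all genes, the number called in the mean effect was 630, and 333 to 836 under the alternatives. For 129 it was 115 (41 to 576), for B6J 59 (2 to 129), for B6N 183 (59 to 251), for C3H 170 (93 to 823), 38 and 7 in B6N against B6J HFD and control livers (0 to 347 and 3 to 10), and 25 in the F test (6 to 90). Leaving out 1 array moved these to 69 to 158 in 129 and 38 to 61 in B6J. The Spc25 mean effect passed in every alternative. The Wee1 mean effect ended with array weights (0.50, p = 0.053) and in part a alone (0.50, p = 0.21). Spc25 in B6J also ended with quantile normalisation (p = 0.064), centred arrays (0.056), the strain's arrays alone (0.093), every probe set (0.057), the part as a block (0.053), part a (0.47) and part b (1), and in B6N in part a (0.67). With the adjusted p in brackets, fits on 1 part of the B6 and C3H arrays also ended Tk1 in B6N (part a 0.21, part b 0.26) and in the mean (part b 0.4), Prim1 (part b 0.59), Cks2 (part a 0.099), Perp in C3H (part a 0.06, part b 0.068), and Egfr in C3H and the mean (part b 0.12 and 0.25). Such fits hold fewer arrays: part a had 3 HFD and 4 control arrays in B6N, and part b 2 and 4 in B6J. In parts a and b Tk1 in B6N was at -0.58 and -0.54 log2, against -0.55 on all arrays. Spc25 in B6J was at 0.36 and 0.46, against 0.43, and Spc25 in B6N at 0.31 in part a, against 0.49. The Prim1 call ended without 129 HFD replicate 1, B6J control replicate 2 or B6N control replicate 3 (0.05 to 0.054), and the Tgfb1 call without 129 HFD replicate 1 or 6, B6J HFD replicate 5 or B6N control replicate 6 (0.052 to 0.063). The cause of these changes was not tested.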
